A study of Mus musculus with 6 samples.

Results

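The 9 genes described here encode enzymes of renal amino acid and creatine-precursor metabolism: Gatm, Ass1, Asl, Arg2, Agxt2, Hpd, Prodh2, Dmgdh and Sardh. They were taken by gene name from the 21957 genes with a value in all 6 libraries, and each name matched 1 gene. RNA-seq profiled kidney cortex from wild-type mice (C57BL/6). The sham group (3 libraries) underwent sham surgery. In the IR24h group (3 libraries) the vessel stalks of both kidneys were clamped for 30 min, and tissue was taken after 24 h of reperfusion, a model of acute kidney injury. The labels state neither age nor sex, and do not tie each library to a mouse of its own, so p-values measure the spread between these libraries, which may be technical. Values of single libraries are given below in the order 1, 2, 3.

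The proximal tubule is a main site of amino acid handling in the body. Its cells take citrulline from the blood and make arginine from it through argininosuccinate synthase (Ass1) and argininosuccinate lyase (Asl). Part of that arginine is joined with glycine by glycine amidinotransferase (Gatm) to give guanidinoacetate, which the liver methylates to creatine. The kidney also degrades glyoxylate-related amino acids, tyrosine, hydroxyproline and the methylated glycines that come from choline, and the remaining genes belong to these routes.

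Libraries held 14339985 to 17061844 counts in sham and 12877237 to 15998975 in IR24h. Genes of the mitochondrial genome took 13.1 to 14.2% of the counts in sham and 68.9, 26.2 and 49.2% in IR24h libraries 1, 2 and 3. IR24h library 2 stood apart. Across genes, its log2 CPM (counts scaled to a common library size) correlated at 0.823 and 0.836 with the other IR24h libraries and at 0.848 to 0.859 with sham, while IR24h libraries 1 and 3 correlated with each other at 0.916. Proximal tubule markers were abundant in sham: Slc34a1, the main phosphate carrier of that segment, read 5484, 6102 and 6020 CPM in the sham libraries.

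Most of these 9 genes were far lower in the injured cortex, and 1 was higher. Of the 9 genes, 7 fell (Gatm, Ass1, Asl, Agxt2, Prodh2, Dmgdh and Sardh), Arg2 rose and Hpd did not pass the test. Among all 13609 genes tested, 7.62% were called lower and 8.65% higher (edgeR quasi-likelihood test, Benjamini-Hochberg adjusted p under 0.05). Among the 8797 genes of at least 10 CPM in sham, which include 8 of the 9, 10.1% were called lower. The same 8 called genes had CPM ranges that did not overlap between the groups, against 21.7% of all genes with a lower and 19.9% with a higher non-overlapping range. The median log2 fold change was −2.61 over the 9 genes and 0.05 over all genes tested. The 9 were chosen with earlier results of these data known, so these shares and medians describe them and are no test of the set. Arg2 was low in sham, at 26, 12 and 33 counts in libraries 1, 2 and 3. For each of the 8 called genes an exact permutation test of log2 CPM, 2-sided, returned the lowest p this design can reach, 0.1 with 3 libraries a group. Without IR24h library 2 the count was again 7 lower and 1 higher, at backgrounds of 24.5% and 23.9%.

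**Figure D1:**
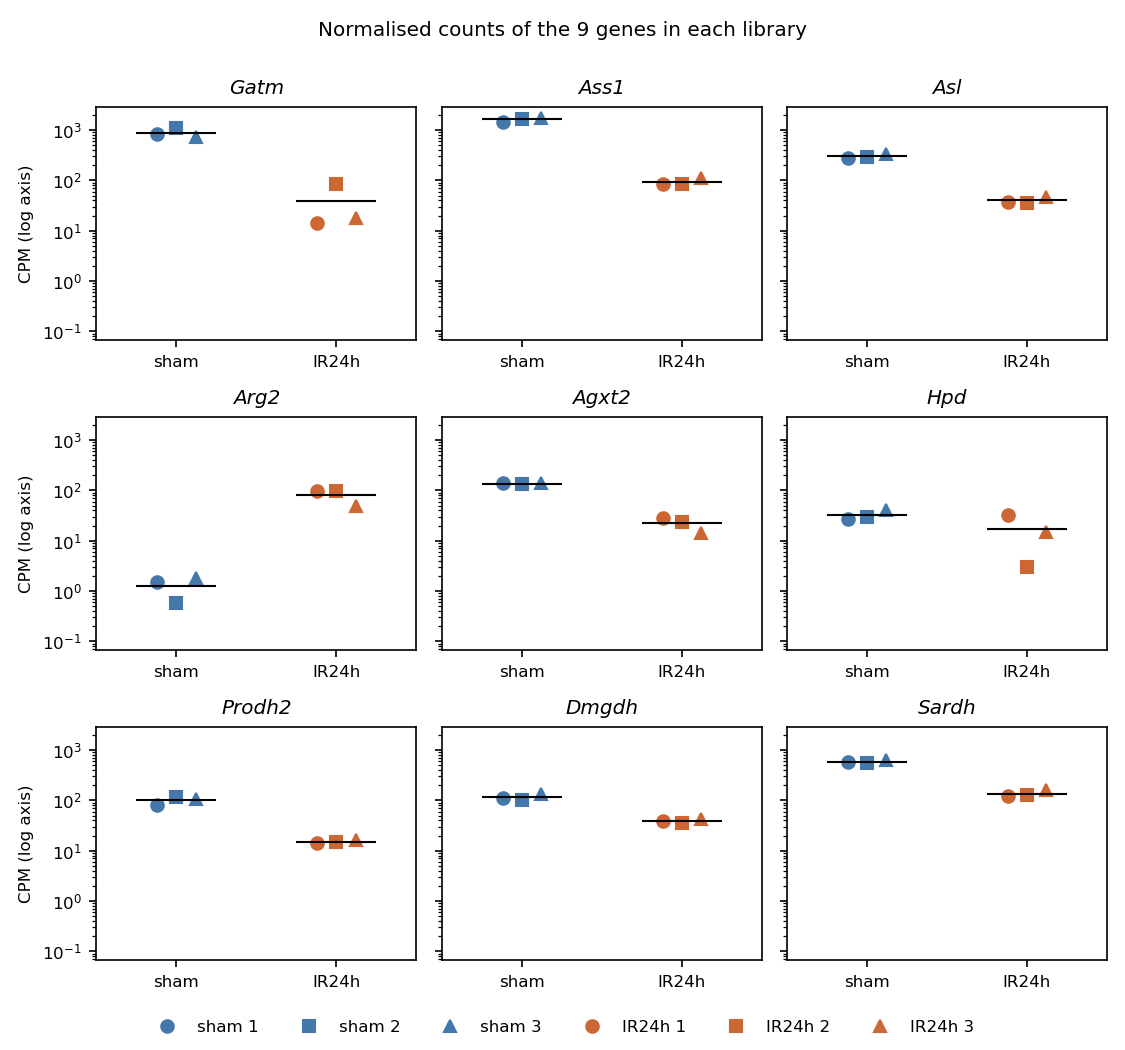
Scaled counts (CPM, log axis) of the 9 genes in each of the 3 sham (blue) and 3 IR24h (orange) libraries, with horizontal lines at the group means and marker shapes for library numbers. Groups are apart for 8 genes. For Hpd, IR24h library 1 at 32.7 CPM lies among the sham values.

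Gatm, the enzyme that forms guanidinoacetate and so commits arginine and glycine to creatine, measured 828, 1111 and 729 CPM in sham tissue and 13.9, 83.1 and 18.3 CPM after injury. Every injured library was far below every sham library, and IR24h library 2 was about 6 times as high as library 1 (ratio 5.97). Mean CPM was 23.1-fold lower in IR24h, with a log2 fold change of −4.53 ± 0.76 (SE; edgeR adjusted p = 0.0102), the 50th lowest of the 13609. It was −5.79 without IR24h library 2 and −3.41 with that library as the only injured one, so the size of the fall, though not its call, rested on that library. Gatm (ENSMUSG00000027199) lies on the minus strand of chromosome 2, from 122594467 to 122611303 (GRCm38), and shares no exon base with another annotated gene.

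Ass1 and Asl, the consecutive enzymes that turn citrulline into arginine, both fell. Ass1, the most abundant of the 9 per gene length in sham, measured 1466, 1656 and 1764 CPM in sham tissue and 83.1, 85.7 and 109 CPM after injury. Its mean was 17.6-fold lower (log2 fold change −4.14 ± 0.31, adjusted p = 7.97e-04). Asl measured 277, 297 and 330 CPM in sham tissue and 37.5, 34.9 and 47 CPM after injury, a 7.57-fold lower mean (−2.92 ± 0.26, adjusted p = 0.00113). For both genes the 3 injured libraries lay close together, within a ratio of 1.31 for Ass1 and 1.35 for Asl. Ass1 fell further than Asl: the ratio of their deposited FPKM (fragment counts scaled to gene length and library size) within a library was 11.9, 12.5 and 12 in sham and 4.98, 5.52 and 5.22 in IR24h. Such a ratio does not depend on library scaling, and its groups did not overlap. The pairs of genes set against each other in this way were chosen after their fold changes were seen. Ass1 (ENSMUSG00000076441, plus strand, chromosome 2 from 31470207 to 31520672) shares 38.6% of its 50-base stretches with Gm5424. That annotated gene has no row in the counts used here, so reads of the shared stretches could have been assigned either way. Asl (ENSMUSG00000025533) lies on the minus strand of chromosome 5 from 130011258 to 130029247.

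Arg2, the mitochondrial arginase that splits arginine into ornithine and urea, moved the other way. It measured 1.48, 0.577 and 1.78 CPM in sham tissue, from 26, 12 and 33 counts, and 98.7, 97.4 and 49.2 CPM after injury, from 695, 1906 and 563 counts. The lowest injured library was far above the highest sham library. Mean CPM was 63.9-fold higher, with a log2 fold change of 6.00 ± 0.55 (adjusted p = 0.00118), the 64th highest of the 13609. Arg2 was also called without each single library, with log2 fold changes of 5.63 to 6.34. Arg2 (ENSMUSG00000021125) lies on the plus strand of chromosome 12 from 79130777 to 79156301. Of its exon bases, 28.1% lie opposite Vti1b and Gm48780, and no source used here says whether counting used the strand. Vti1b, a vesicle fusion protein gene, averaged 49 CPM in sham tissue and 50.9 CPM after injury (0.06 ± 0.28, adjusted p = 0.904).

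Agxt2, a mitochondrial aminotransferase that acts on glyoxylate, beta-aminoisobutyrate and asymmetric dimethylarginine, measured 137, 132 and 138 CPM in sham tissue and 28.6, 23.9 and 14.2 CPM after injury. The sham libraries were nearly equal (SD 2.95 CPM around a mean of 136), and among the injured ones library 3 was lowest. The mean was 6.11-fold lower (−2.61 ± 0.32, adjusted p = 0.00356). Agxt2 (ENSMUSG00000089678) lies on the plus strand of chromosome 15 from 10358532 to 10410153.

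Prodh2, the mitochondrial hydroxyproline dehydrogenase that starts the breakdown of hydroxyproline, measured 79.5, 116 and 108 CPM in sham tissue and 13.9, 14.7 and 16 CPM after injury. Its injured libraries were the closest together of any of the 9 genes, within a ratio of 1.15. The mean was 6.81-fold lower (−2.77 ± 0.26, adjusted p = 0.00141). Prodh2 (ENSMUSG00000036892) lies on the plus strand of chromosome 7 from 30493622 to 30513402.

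Dmgdh and Sardh, the flavoenzymes that strip methyl groups from dimethylglycine and then from sarcosine to yield glycine, had the shallowest falls among the 7. Dmgdh measured 109, 102 and 136 CPM in sham tissue and 39.2, 36.3 and 42.4 CPM after injury, a 2.94-fold lower mean (−1.56 ± 0.24, adjusted p = 0.00746). Sardh measured 581, 548 and 624 CPM in sham tissue and 120, 128 and 157 CPM after injury, a 4.32-fold lower mean (−2.11 ± 0.26, adjusted p = 0.00361). The groups did not overlap for either gene. Within a library the FPKM of Sardh was 2.61, 2.64 and 2.26 times that of Dmgdh in sham and 1.51, 1.73 and 1.82 times in IR24h. The call of Dmgdh was lost without sham library 3 (−1.40, adjusted p = 0.0561). Dmgdh (ENSMUSG00000042102, plus strand, chromosome 13 from 93674433 to 93752833) has 6.30% of its exon bases opposite AW495222. Sardh (ENSMUSG00000009614, minus strand, chromosome 2 from 27188393 to 27248337) has 3.46% opposite Sardhos.

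Hpd, the dioxygenase of tyrosine breakdown that makes homogentisate, was the gene without a call. It measured 26.4, 28.9 and 40.9 CPM in sham tissue and 32.7, 3.07 and 15.2 CPM after injury. The injured libraries spread over a ratio of 10.7, from a value within the sham range in library 1 to 60 counts in library 2. Its log2 fold change of −0.93 ± 0.71 had an adjusted p of 0.387, and the exact permutation test, 2-sided, gave p = 0.3. It was −0.44 without IR24h library 2 (adjusted p = 0.355) and −3.37 with that library as the only injured one (adjusted p = 0.00172, in a fit whose spread comes from the sham libraries and takes the lone library to vary like them). Gatm and Hpd thus ordered the injured libraries oppositely: relative to the sham mean of log2 CPM, Gatm stood at −5.97, −3.40 and −5.58 and Hpd at 0.05, −3.36 and −1.05 in IR24h libraries 1, 2 and 3. Hpd (ENSMUSG00000029445) lies on the minus strand of chromosome 5 from 123171807 to 123182727.

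**Figure D2:**
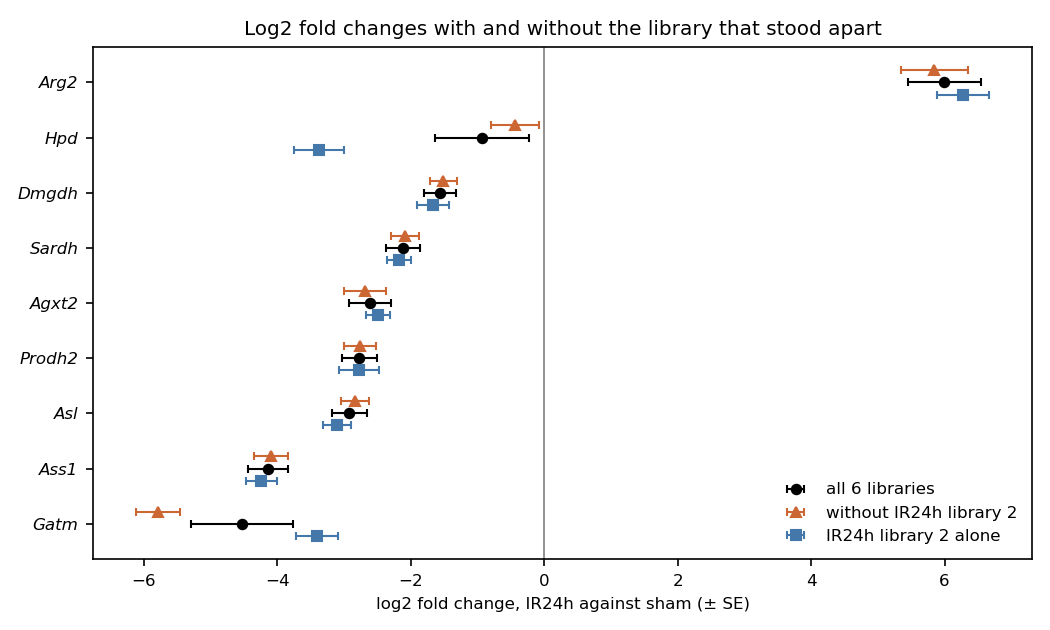
Log2 fold change of each of the 9 genes, IR24h against sham, with its SE, from all 6 libraries (black), without IR24h library 2 (orange) and with it as the only injured library (blue). For Gatm the values are −4.53, −5.79 and −3.41 and for Hpd −0.93, −0.44 and −3.37, while for each of the other 7 genes the error bars of the 3 settings overlap.

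Compared per gene length by the deposited FPKM, the order of the genes in sham was Ass1 (608 ± 40.3, SD, n = 3), Gatm (290.4 ± 71.4), Sardh (89.6 ± 3.40), Asl (50 ± 2.66), Agxt2 (37.6 ± 1.17), Dmgdh (36 ± 4.14), Prodh2 (24 ± 4.36), Hpd (12.4 ± 2.50) and Arg2 (0.984 ± 0.464). Agxt2 and Dmgdh were the only neighbours in this order whose ranges overlapped. In IR24h, Arg2 led with 50.3 ± 29 FPKM, followed by Ass1 (27.5 ± 10.7), Sardh (16.6 ± 6.59) and Gatm (12.3 ± 15.3), and Prodh2 was last with 2.81 ± 1.12. There every pair of neighbours overlapped across libraries. Within single libraries the FPKM of Ass1 was 477, 1386 and 478 times that of Arg2 in sham tissue, and that of Arg2 was 2.46, 2.35 and 0.934 times that of Ass1 after injury. The summed CPM of the 9 genes was 3506, 3992 and 3872 in sham and 468, 507 and 469 in IR24h. Arg2 made up 0.0145 to 0.046% of that sum in sham and 21.1, 19.2 and 10.5% in the injured libraries.

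**Figure D3:**
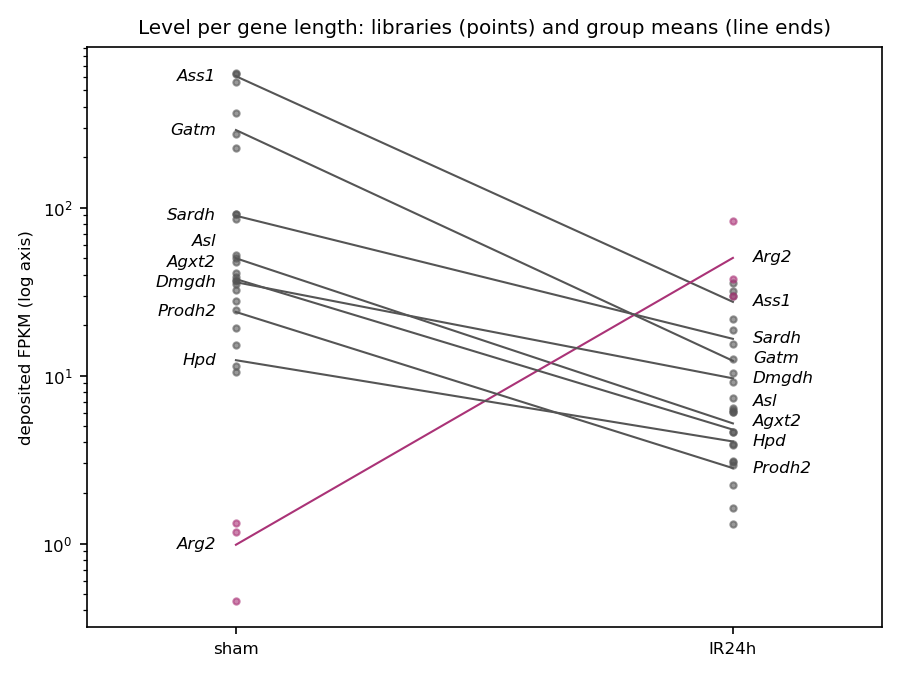
Deposited FPKM (log axis) of the 9 genes in the sham and IR24h libraries (points), with lines joining the group means. Arg2 goes from the lowest mean in sham, 0.984, to the highest in IR24h, 50.3, while the means of the other 8 genes are lower in IR24h. Deposited FPKM lack the scaling used for CPM. The median log2 fold change over the genes tested was −0.39 with FPKM (limma) and 0.05 in the main fit (edgeR). Hpd is apart between the groups here but overlaps in CPM.

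Stretches of the windows before the transcript start are shown for 3 of the genes, where the window held one of the 4 motifs given here, since 7 genes moved together downwards. RefSeq windows (GRCm38.p6) were matched for 7 of the 9 genes by symbol, not for Asl and Arg2, and the 250 bases before the start were searched on both strands. These RefSeq starts can differ from the gene coordinates given above, which come from GENCODE M21. By those coordinates the E-box of Ass1 and the whole window of Sardh lie inside the gene. The motifs were CAAAGTC (core of the HNF4 site), CACGTG (E-box), TGANTCA (AP-1) and TATAAA (the core promoter box). HNF4 factors maintain proximal tubule gene expression. Capitals mark the motif or its reverse complement, with 10 bases on either side, 5′ to 3′ on the strand of the gene. Labels name matches of letters only. The core promoter box letters of Agxt2 are the reverse complement, at −77 to −72 from the start.
Agxt2, HNF4, chr15:10358502-10358528, plus strand: cttctaatatCAAAGTCcagtccagtc
Agxt2, core promoter box, chr15:10358446-10358471, plus strand: cccaagtccaTTTATAgtcagcagtc
Ass1, E-box, chr2:31470224-31470249, plus strand: cgcccgtcccCACGTGtcccaggttc
Hpd, AP-1, chr5:123182846-123182872, minus strand: tgcccagagcTGACTCAggggttccca
Each motif was held by 1 of the 7 genes, and the windows of Gatm, Prodh2, Dmgdh and Sardh held none of these 4. Of all 32851 windows of this length, 3.84% held the HNF4 letters, 6.02% the E-box, 6.75% the AP-1 letters and 12.4% the core promoter box. Hnf4a measured 888, 789 and 776 CPM in sham tissue and 205, 521 and 279 CPM after injury (−1.29 ± 0.39, adjusted p = 0.0600). It did not pass the test, though all injured libraries were below all sham libraries.

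The genes most like the mean profile of the 9 were sought among 8789 other genes of at least 10 CPM in sham, by the Euclidean distance of log2(CPM + 0.5), minus its sham mean, over the 6 libraries. The nearest were Apeh (distance 0.159), Hgd (0.188), Slc5a6 (0.274), Tlr12 (0.303), Gm10762 (0.356) and Acaa2 (0.358). Hgd encodes the dioxygenase that follows Hpd in tyrosine breakdown. It measured 356, 362 and 410 CPM in sham tissue and 119, 105 and 106 CPM after injury (−1.77 ± 0.24, edgeR adjusted p = 0.00472). The search favours genes that fall, so the fall of Hgd is no separate result. The mean profile takes in Arg2, which rose, and so lies above the profiles of most of the 9 in IR24h. Among the 3 profiles nearest to that of Gatm were those of Slc6a19 (0.429), the neutral amino acid transporter of the brush border, and Slc8a1 (0.846), a sodium/calcium exchanger. Slc6a19 measured 532, 588 and 420 CPM in sham tissue and 9.80, 56 and 9.70 CPM after injury. Library 2 was the highest injured one, which the search for profiles like that of Gatm favours.

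Other genes of the same routes were mostly lower or without a call. Over all genes tested 7.62% were lower and 8.65% higher, the shares to set beside each list below. These lists and the marker lists below were, like the 9 genes, chosen with earlier results of these data known. Of 126 listed genes beside the 9 in 7 lists, 114 were tested, of which 41 fell (36%), 7 rose (6.14%) and 66 were not called, with a median log2 fold change of −0.91 against 0.05 over all genes. Restricted to the 94 whose gene length implied by count and FPKM was the same in both groups, 33 fell and 5 rose. Leaving out sham library 1, 2 or 3 gave 11 fallen genes each time, with 2, 2 and 3 risen. Over all genes these fits called 237, 212 and 196 lower and 283, 246 and 292 higher, of 13941, 13854 and 13887 tested. Leaving out IR24h library 2 gave 63 fallen and 17 risen, where 24.5% of all genes were lower and 23.9% higher. Scaling for library size alone gave 22 fallen and 3 risen, and moved the median of all genes to −0.39.

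**Figure D4:**
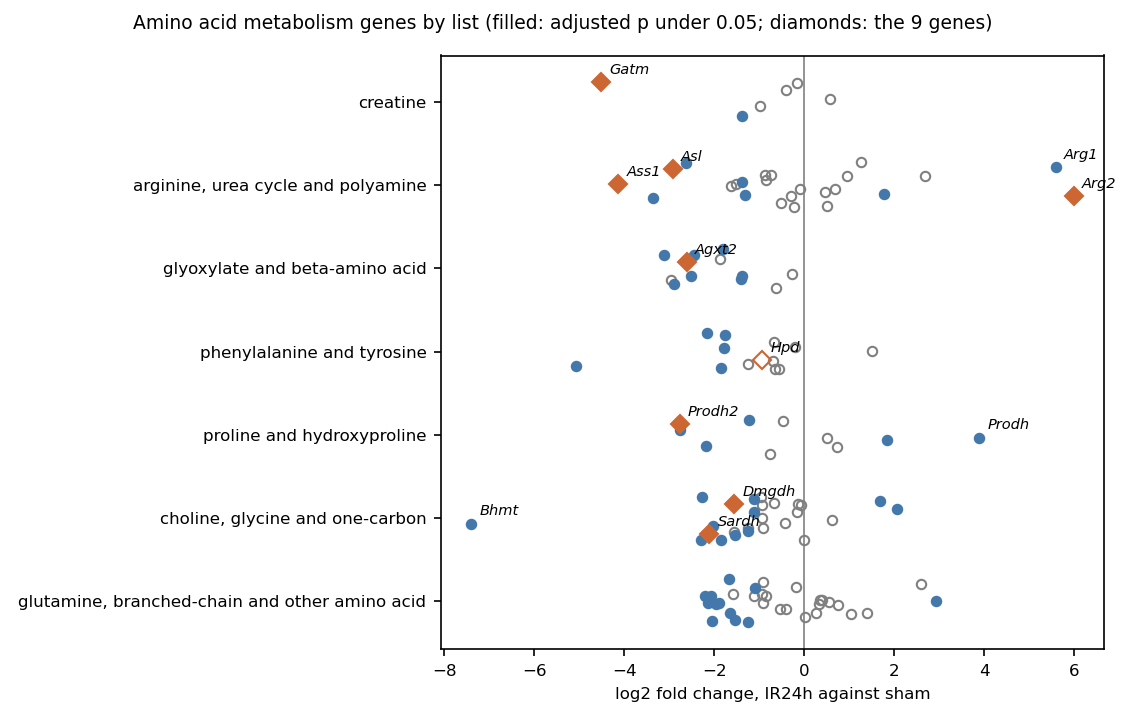
Log2 fold change, IR24h against sham, of each tested gene of the 7 amino acid lists (a line each), with filled symbols for an adjusted p under 0.05 and orange diamonds for the 9 genes (open for Hpd). Points to the left of 0 are lower in IR24h, and Arg2, Arg1 and Prodh lie farthest to the right.

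In the creatine list 1 of 5 other tested genes fell and 0 rose (edgeR). It was Slc6a8, the cellular creatine transporter, with 241 ± 50.1 CPM (SD, n = 3) in sham tissue and 92 ± 9.87 CPM after injury (−1.39 ± 0.27, adjusted p = 0.0156). Gamt, which methylates the product of Gatm, averaged 20.9 ± 4.32 and then 16 ± 11.3 CPM (−0.39 ± 0.65, adjusted p = 0.703).

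In the arginine, urea cycle and polyamine list 4 of 21 other genes fell and 2 rose. The basic amino acid transporter genes Slc7a7 (272 ± 19 to 26.4 ± 13.2 CPM) and Slc7a9 (176 ± 7.22 to 28.3 ± 9.35 CPM) fell, as did Odc1, ornithine decarboxylase (605 ± 72.6 to 231 ± 14 CPM). Smox, spermine oxidase, rose from 5.81 ± 0.679 to 19.8 ± 5.64 CPM. Arg1, the cytosolic arginase, had 0, 3 and 0 counts in sham tissue and 19, 13 and 61 after injury. It thus passed the expression filter through IR24h, which largely set its direction. The pooled ratio was 46.3 (95% exact counting interval 15.4 to 229, which covers counting error only), so the rise rests on few counts, and its call was lost without IR24h library 1 or 3 or any sham library (adjusted p up to 0.0924). Oat, which uses the ornithine made by arginase, averaged 207 ± 16.5 CPM in sham tissue and 115 ± 37.2 CPM after injury (−0.85 ± 0.29, adjusted p = 0.0867).

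In the glyoxylate and beta-amino acid list 7 of 11 other genes fell and 0 rose (edgeR). Abat, the GABA aminotransferase, fell from 399 ± 14.2 to 46.1 ± 44 CPM, Aldh6a1, a dehydrogenase of valine and thymine breakdown, from 1033 ± 59.8 to 139.7 ± 157 CPM, and Hao2, a peroxisomal hydroxyacid oxidase, from 244 ± 31.9 to 42.8 ± 11.4 CPM. Without IR24h library 2 the log2 fold change of Aldh6a1 was −4.41 and that of Abat −4.24, against −2.88 and −3.11 with it.

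In the phenylalanine and tyrosine list 5 of 12 other genes fell and 0 rose (edgeR). Qdpr, which regenerates tetrahydrobiopterin, fell from 195 ± 60.4 to 43.6 ± 22 CPM, and Pcbd1, another enzyme of that cofactor, from 199 ± 23 to 55.7 ± 26.6 CPM. Hgd and Ddc, the aromatic amino acid decarboxylase (−1.76, adjusted p = 0.0203), were also called lower. Fah, the last enzyme of tyrosine breakdown, averaged 372 CPM in sham tissue and 251 CPM after injury (−0.57, adjusted p = 0.311), and Tat, the first, was at 0 counts in all 6 libraries. Ddc, Fah and Tat were named after their values were seen, and Hpd was not tested against them.

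In the proline and hydroxyproline list 3 of 9 other genes fell and 2 rose. Prodh, the proline dehydrogenase related to Prodh2, rose from 5.02 ± 0.576 to 74.3 ± 20.3 CPM (3.88 ± 0.31, adjusted p = 9.15e-04). Its implied length after injury was 42.9% of that in sham. Aldh18a1, which starts proline synthesis, rose from 3.12 ± 0.371 to 11.2 ± 2.45 CPM. Aldh4a1, the dehydrogenase that follows Prodh and Prodh2, fell from 588 ± 46.6 to 86.5 ± 13.3 CPM (−2.76 ± 0.27), and Pepd, a dipeptidase that frees proline, from 299 ± 25.8 to 65.7 ± 22.1 CPM. Pycrl, a pyrroline-5-carboxylate reductase gene, fell from 40.8 ± 6.30 to 17.3 ± 3.45 CPM, also with implied lengths that differed.

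In the choline, glycine and folate-dependent carbon list 10 of 25 other genes fell and 2 rose. Bhmt, the betaine methyltransferase that makes dimethylglycine, had 23, 32 and 21 counts in sham tissue and 0 in each injured library, at least 17-fold lower against a floor of 3 counts over the group. It thus passed the expression filter through sham, which largely set its direction. Its call was lost without sham library 1, 2 or 3 (edgeR adjusted p up to 0.0609). Gnmt, which methylates glycine to sarcosine, fell from 17.6 ± 2.79 to 3.61 ± 1.12 CPM (its implied length differed), and Folr1, the folate receptor, from 239 ± 25.6 to 49.7 ± 12.5 CPM. Mthfd2 and Mthfd1l, mitochondrial folate enzymes, rose from 2.77 ± 0.707 to 11.7 ± 3.42 CPM and from 2.63 ± 0.548 to 8.49 ± 1.25 CPM.

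In the list of glutamine, branched-chain and other amino acid genes 11 of 31 fell and 1 rose. Asns, asparagine synthetase, rose from 2.12 ± 0.215 to 16.2 ± 2.11 CPM (2.93 ± 0.29, adjusted p = 0.00151). Pcca, Mccc1 and Mut, mitochondrial enzymes of branched-chain amino acid breakdown, fell from 139 ± 12.1, 154 ± 7.93 and 245 ± 13.4 CPM to 30 ± 16.1, 34.8 ± 21.9 and 58.1 ± 44 CPM, and the implied length of Mut differed. Of the 26 genes named from the 7 lists by the rule, 10 kept their call without each of the 6 libraries, among them Slc7a7, Slc7a9, Hao2, Prodh, Aldh4a1, Pepd, Gnmt, Folr1 and Asns. The other 16 lost it without at least 1 sham library.

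Markers of several cell types, though not of all, moved with these genes. Of 17 proximal tubule markers, 10 fell and 0 rose (edgeR), where 7.62% of all genes tested fell and 8.65% rose. Their summed level was 35258 to 40297 CPM in sham and 14342, 11764 and 18513 CPM in the injured libraries. Of these injured sums 10826, 5080 and 13814 CPM came from Kap, which was not called (−0.10 ± 0.47, edgeR adjusted p = 0.901). Of 7 markers of the straight part of the tubule 3 fell, with sums of 1031 to 1424 CPM in sham and 182 to 348 CPM in IR24h. In bulk tissue, fewer cells of a type and less RNA per cell cannot be told apart. Of 9 injured tubule markers 8 rose. Of 4 distal convoluted tubule markers 2 fell, with sums of 1514 to 1849 CPM in sham and 183, 849 and 166 CPM in the injured libraries, highest in library 2 as for Gatm. Of 6 markers of the thick ascending limb 0 were called (edgeR), with a median log2 fold change of 0.73 and sums of 1899 to 2701 CPM in sham and 1566 to 5330.4 CPM in IR24h. Of 8 collecting duct markers 2 fell, and their sums overlapped between the groups (498 to 562 CPM in sham and 209 to 579 CPM in IR24h). Macrophages express both arginases, and of 13 entries for 12 listed macrophage and monocyte genes (Itgam has a pair of gene IDs) 5 rose, with sums of 101 to 110 CPM in sham and 200, 120 and 306 CPM in the injured libraries, while Arg2 was 98.7, 97.4 and 49.2 CPM there. Of 7 neutrophil markers, 3 were tested and rose, with sums of 0.701 to 1.37 CPM in sham and 6.75 to 19.1 CPM in IR24h, and Ly6g was at 0 throughout. S100a8 and S100a9, both at 0.288 CPM or less in sham, passed the expression filter through IR24h, so that their direction was largely set by the filter. Csf3r, Msr1, both Itgam entries, Krt20, Timp1, Lcn2 and Sox9 did not reach the count minimum in all sham libraries either. They too passed the filter through IR24h, and their rises carry the same limit. Hepatocytes share most of the 9 genes, and the 12 hepatocyte markers summed to 141 to 195 CPM in sham and 448 to 866 CPM in IR24h, with the liver enzyme genes Otc and Tat at 0 counts in all 6 libraries. Of the 8 tested, 2 rose (Serpina1a and, through the filter, Apoa1), 1 fell (Ttr) and 5 were not called, Alb among them. Single genes made up much of the injured sums: Apoc3 495 CPM in library 1, Fga 557 CPM in library 2 and Serpina1a 295 CPM in library 3. The 8 adipocyte markers summed to 15.6 to 25.2 CPM in sham and to 88.1, 195 and 87 CPM in the injured libraries, with Adipoq at 16 CPM in IR24h library 2, where Gatm was highest and Hpd lowest of the injured libraries. The part of these cell types in the results was not tested.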

How the data were processed

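The members and gene lists were chosen with earlier results of these data known. CASAVA 1.8 and TopHat2 2.0.6 are listed in the submitters' processing notes, with mm10 and GRCh38 as builds; the counting tool and annotation are not stated there. The authors deposited, per the file headers, raw counts per gene and FPKM for each library. Of 22040 genes, 83 had no sham value and were left out.

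Counts were filtered with edgeR's filterByExpr, scaled by TMM (trimmed mean of M-values; factors 1.16 to 1.22 in sham and 0.547, 1.22 and 0.861 after injury) and tested with edgeR 4.0.16 (quasi-likelihood, 2-sided, R 4.3.3), with Benjamini-Hochberg adjustment over 13609 genes. SEs derive from the F statistic. CPM use TMM-scaled library sizes. The deposited FPKM served to compare genes per length and, with the counts, to recover implied gene lengths. These differed between the groups by over 0.01 (log2) for 1681 of 12806 genes with at least 5 counts in every library (13.1%) and for none of the 9. The groups may thus have been processed differently, and processing and injury cannot be told apart. Coordinates come from GENCODE M21 (GRCm38, the assembly of mm10), which listed the gene identifiers, and promoter sequences from RefSeq. Named genes were the 9, the up to 3 called genes of highest and lowest log2 fold change per list, and the nearest profiles. Counting intervals cover counting error only. Alternatives included limma 3.58.1, DESeq2 1.42.0, other scalings, no filter, FPKM with a pseudocount of 0.1 and a mean of at least 0.5, a replicate block and leaving out libraries. Figures used matplotlib 3.10.9. Some genes that the rule names and 1 searched motif are not reported here.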

Additional observations from a re-analysis of the deposited data

How the results depend on the processing

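Of the 9 genes, 7 were called lower and 1 higher under the alternatives run, except that 6 were lower without sham library 3 (Dmgdh lost) and 8 with IR24h library 2 alone (Hpd gained, log2 fold change −3.37, with the spread taken from sham). Leaving out 1 library gave 6 to 7 lower and 1 higher. The genes called among all tested, 1177 higher and 1037 lower, were 398 and 611 when only library size was scaled for, 2068 and 1675 with DESeq2, 2690 and 2749 with IR24h library 2 alone, and 621 higher with limma on log2 FPKM; leaving out 1 library gave 246 to 3297 higher and 196 to 3382 lower. The other pathway genes, 7 higher and 41 lower, were 3 and 22 with library size only, 12 higher with DESeq2, 14 and 69 with IR24h library 2 alone, and 2 to 17 and 11 to 63 leaving out 1 library. All fits that leave out a library have fewer samples. Those without IR24h library 1 or 3 called 842 and 813 genes higher and 709 and 749 lower among all tested. The cause of these shifts was not tested. With the replicate block, 814 genes were higher and 843 lower, with the same 7 and 1 of the 9 called. The numbers were not taken as pairs: deviations of same-numbered libraries correlated at −0.109, 0.120 and 0.233, and sham library 1 correlated best with IR24h library 2 (0.179). Depth limits Arg2 in sham (12 to 33 counts) and Hpd in IR24h library 2 (60 counts).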

Other observations

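The genes around the 9 on the chromosomes differed in how they changed. Of the 10 tested genes nearest to each, 5 on either side, 0 to 3 were called lower and 0 to 2 higher (edgeR, adjusted p under 0.05), against 7.62% and 8.65% of all genes tested. Of those around Arg2 on chromosome 12, 0 were called, with log2 fold changes from −0.18 to 3.34 and a median of 0.22. The 10 neighbours of Ass1 had 1 higher and 1 lower call and a median of 0.22, and those of Gatm 2 higher and 1 lower and a median of −0.15. The most calls were around Agxt2, with 3 lower and 2 higher of 10 and a median of 0.02. Asl had 2 lower, Hpd and Prodh2 1 lower each, Dmgdh 1 lower and 1 higher, and Sardh 0. Next to Dmgdh on chromosome 13 lie Bhmt, from 93616675 to 93637961, and Bhmt2, from 93655720 to 93674302, both methyltransferases of the same choline route. Bhmt2 averaged 89.2 CPM in sham tissue and 66.6 CPM after injury (−0.42 ± 0.46, adjusted p = 0.551), while Bhmt had 0 counts in each IR24h library and Dmgdh fell by 1.56 on the log2 scale. Called falls beside other genes of the 9 included Sord near Gatm (−2.83), Hmcn2 near Ass1 (−2.81) and Zbed5 near Asl (−2.24). On chromosome 15, C1qtnf3 near Agxt2 had a log2 fold change of −2.60 (adjusted p = 0.00327). There, too, Ugt3a2 and Ugt3a1, glycosyltransferase genes near Agxt2, had log2 fold changes of −3.12 and −3.15 (adjusted p = 0.00298 and 0.00346). These neighbours were named after their values were seen.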
